A study of Mus musculus with 24 samples.

Results

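Fibroblast growth factor (FGF) signalling was followed through its ligands, receptors, adaptors, feedback inhibitors and ETS target factors in mouse optic vesicle (OV) organoids passing from mESCs to the eye field (EF). The genes were 38 rows of the deposited expression table, chosen by symbol from its 49705 gene entries: 12 secreted ligands, 2 ligands of the endocrine subfamily, 4 intracellular FGFs, 5 receptors, 2 adaptors, 9 feedback inhibitors, the transmembrane protein gene Flrt3 and 3 ETS factors. RNA-seq had been performed on 24 libraries in 8 groups of 3 replicates, covering days 0, 1, 2 and 3 (all live cells) and GFP-positive and GFP-negative cells sorted on days 4 and 5. All groups came from the same knock-in line, Rx-GFP K/I EB5, in which GFP reports the eye-field gene Rax, and no group carried a further treatment.

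Each organoid was started on day 0 from 4500 mESCs that had been kept feeder free with LIF, knockout serum replacement and 1% FCS, and Matrigel was added to 2% on day 1. Cells of 24 pooled organoids made up a sample. For the differentiation medium the labels name GMEM with 1.5% knockout serum replacement, whereas the study's methods name a chemically defined medium without growth factors for these organoids. The sort gates were wide, so the GFP-negative samples held some cells with low GFP, the GFP-positive samples held moderate and high GFP, and the day 3 samples held a small share of GFP-expressing cells. The organoids came from a single reporter line, and the replicates measure the spread between pools of organoids.

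FGFs are secreted proteins that bind receptor tyrosine kinases together with heparan sulphate. The activated receptor phosphorylates the adaptor FRS2, which recruits the RAS, RAF, MEK and ERK cascade, and ERK in turn activates the ETS factors Etv4 and Etv5 and its own inhibitors of the Sprouty, Spred and dual-specificity phosphatase families. In the mouse embryo Fgf4 is made by pluripotent cells, Fgf5 marks the epiblast that has left the naive state, and Fgf8 and Fgf15 are expressed in patterned territories of the early brain, while FGF signalling is known for its part in eye and forebrain patterning.

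The deposited values were DESeq2-normalized counts per gene, and library totals lay between 39849111 and 51587535 with an estimated depth of 36780743 to 54754492 reads. Day 0 replicate 1 stood apart from its group, with rank correlations of 0.953 to 0.954 to the other day 0 libraries against 0.979 to 0.993 in the other 22 replicate pairs. The calls that change when it is left out are named beside the results. All libraries enter 1 fit, so these include calls of comparisons without day 0. Of the 38 genes, 37 reached 10 normalized counts in 3 or more libraries and were tested. Fgf20 did not, its highest value being 5.26 in day 0 replicate 2. The labelled populations held the eye field markers Rax, Pax6, Lhx2, Six3 and Six6 at summed levels of 45893 to 47745 in day 4 GFP-positive cells against 8870 to 10833 in day 4 GFP-negative cells, and of 54804 to 57307 against 8351 to 9094 on day 5.

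A gene was called where limma, run on log2(normalized count + 1), gave a log2-fold-change beyond 1.5 in either direction with a Benjamini-Hochberg adjusted p below 0.001 over the 21005 genes tested. Over 11 comparisons 24 genes of the set were called at least once, 13 were tested and never called, and 67 of 407 pairs of gene and comparison were called, beside 21.5% of all genes called at least once and 3.69% of all pairs. The genes were chosen with earlier results of these data known, so these counts are a description.

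The sequences just upstream of the start site are shown for 4 genes on which the results below turn, a ligand of pluripotent cells, a ligand of the epiblast, an ERK phosphatase and an ETS factor, since ETS factors bind DNA around the letters CCGGAA. The windows hold the 250 bases before a RefSeq transcript start (GRCm38.p6), at chr7:144861136-144861385 for Fgf4 on the plus strand, chr5:98253934-98254183 for Fgf5 on the plus strand, chr10:99262981-99263230 for Dusp6 on the plus strand and chr16:22439571-22439820 for Etv5 on the minus strand, where it precedes the more upstream of the listed starts. They are written 5′ to 3′, and capitals mark CCGGAA or its reverse complement TTCCGG.
Fgf4: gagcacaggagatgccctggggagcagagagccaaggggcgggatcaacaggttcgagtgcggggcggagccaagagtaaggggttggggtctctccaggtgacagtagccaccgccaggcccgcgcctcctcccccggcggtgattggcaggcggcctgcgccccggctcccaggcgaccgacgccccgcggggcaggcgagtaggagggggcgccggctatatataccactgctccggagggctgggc
Fgf5: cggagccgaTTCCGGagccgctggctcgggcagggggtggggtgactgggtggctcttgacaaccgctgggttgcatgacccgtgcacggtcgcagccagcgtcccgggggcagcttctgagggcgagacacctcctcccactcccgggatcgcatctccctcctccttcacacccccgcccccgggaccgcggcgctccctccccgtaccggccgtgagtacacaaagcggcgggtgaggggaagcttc
Dusp6: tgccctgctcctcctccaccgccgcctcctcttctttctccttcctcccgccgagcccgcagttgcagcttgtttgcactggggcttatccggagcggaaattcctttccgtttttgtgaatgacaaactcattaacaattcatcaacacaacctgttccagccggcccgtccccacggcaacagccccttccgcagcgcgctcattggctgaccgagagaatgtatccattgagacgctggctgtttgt
Etv5: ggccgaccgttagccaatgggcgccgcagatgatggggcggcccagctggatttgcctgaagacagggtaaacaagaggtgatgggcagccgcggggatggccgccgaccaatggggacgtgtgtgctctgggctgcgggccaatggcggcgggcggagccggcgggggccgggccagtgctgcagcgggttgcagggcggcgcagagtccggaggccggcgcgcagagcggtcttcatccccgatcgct

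Only the Fgf5 window of these 4 held CCGGAA or TTCCGG. Shorter or different letters were not searched, so the other windows are not shown to lack sites for ETS factors. Of the 38 genes, 29 had at least 1 window in the table, with 38 windows in all, and CCGGAA or TTCCGG was in 5 of these windows, 1 each of Fgf5, Fgf12, Fgfr4, Fgfrl1 and Frs2. This was 13.2% of the windows of the set, close to the share of 12.03% among all 32851 promoter windows of this length. The TATA box letters TATAAA, on either strand, were in 2 windows, of Etv1 and Fgf21 (5.26%), against 12.4% of all windows, and the cyclic AMP response element TGACGTCA, which is its own reverse complement, was in no window of the set against 1.55% of all windows. Windows were read for letters only, and overlaps between motifs were not removed.

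Fgf3, Fgf4 and Fgf15 lie in a row on the plus strand of chromosome 7 between 144838083 and 144900953 (mm10), with 2.93 kb between the annotated ends of Fgf3 and Fgf4 and 31.3 kb between those of Fgf4 and Fgf15. The levels of these neighbours are described separately below.

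**Figure D1:**
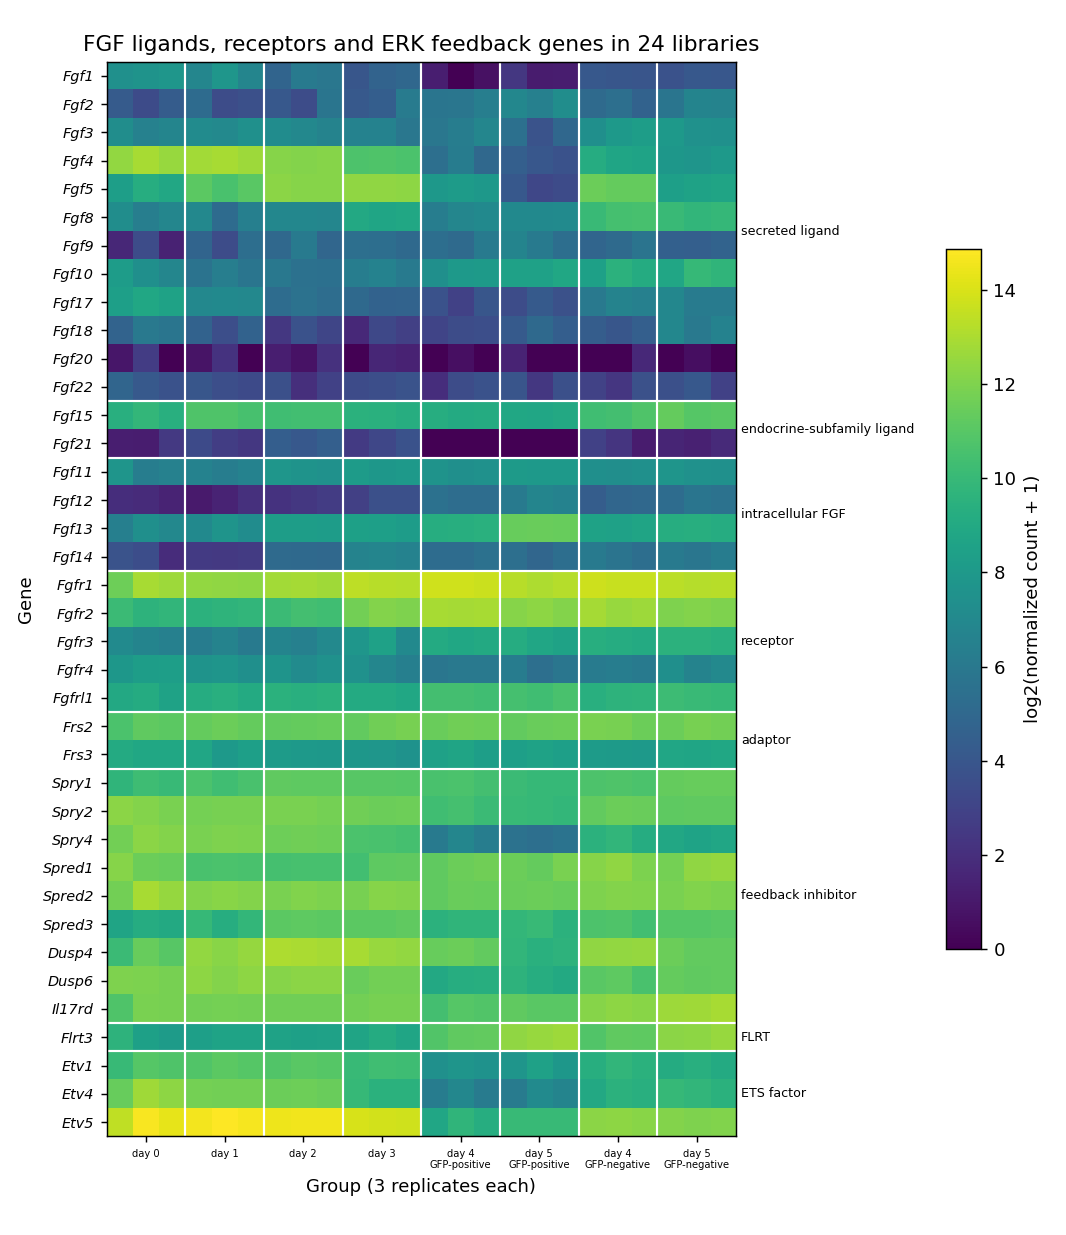
Heat map of log2(normalized count + 1) for the 38 genes (rows, ordered by role) in the 24 libraries (columns, 3 replicates in each group). Fgf4, Spry4, Etv4 and Etv5 are bright on days 0 to 2 and darker in the GFP-positive libraries, whereas the rows of Fgfr1 and Fgfr2 stay bright in both gates.

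Fgf4, the ligand made by pluripotent cells, was highest on days 0 and 1 and lowest in GFP-positive cells. Its normalized counts were 5751, 7655 and 6197 on day 0, 7158, 7859 and 6748 on day 1, 4596, 4455 and 4526 on day 2 and 1676, 1721 and 1608 on day 3. In GFP-negative cells they were 602, 428 and 395 on day 4 and 236, 218 and 256 on day 5. In GFP-positive cells they were 41.8, 76.0 and 31.0 on day 4 and 21.3, 15.3 and 12.4 on day 5. Every GFP-positive library was therefore below every GFP-negative library of its day, by 9.58 times on day 4 and 14.5 times on day 5 in the group means.

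Fgf5, the marker of the formative epiblast, rose from day 0 to day 3, whereas Fgf4 declined only after day 1. Its normalized counts were 329, 609 and 478 on day 0, 2272, 1561 and 2118 on day 1, 4956, 4592 and 4653 on day 2 and 5326, 5309 and 5166 on day 3. The summed level of the formative epiblast markers Otx2, Pou3f1, Dnmt3b, Lef1 and Zic2 lay between 18906 and 45730 on day 0 and between 152020 and 172570 on day 3. In the sorted cells it lay between 38706 and 40991 with GFP and 61741 and 71769 without on day 4, and the gates overlapped on day 5 (27624 to 32873 against 28040 to 29060). In GFP-negative cells Fgf5 stood at 2989, 2582 and 2674 on day 4 and at 342, 386 and 411 on day 5, and in GFP-positive cells at 248, 284 and 246 on day 4 and at 16.3, 7.99 and 9.55 on day 5. On each day the gates did not overlap, and the means differed by 10.6 times on day 4 and 33.7 times on day 5.

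Between days 0 and 3 genes of the set changed in both directions. Of the 37 genes tested 8 rose and 5 fell, against 5.91% and 6.12% of all genes tested. Beside Fgf5 (log2-fold-change 3.52 ± 0.21 SE) the genes that rose were the ligands Fgf8 (2.04 ± 0.30) and Fgf9 (3.11 ± 0.51, from 2.11, 10.0 and 1.69 normalized counts on day 0), the intracellular Fgf12 (1.63 ± 0.32) and Fgf14 (3.60 ± 0.35), the receptor Fgfr2 (2.09 ± 0.13), and the inhibitors Spred3 (2.17 ± 0.16) and Dusp4 (1.80 ± 0.20). The genes that fell were Fgf17 (-3.76 ± 0.28), Fgf1 (-3.05 ± 0.42), Fgf18 (-2.91 ± 0.44), Fgf4 (-1.96 ± 0.23) and Etv4 (-2.53 ± 0.27). The median log2-fold-change of the 37 genes was 0.13, beside -0.03 over all genes tested. Without day 0 replicate 1 the count was 14 genes, with Dusp4 (1.44) no longer called and Spry4 (-1.63) and Fgf11 (1.59) added. In a fit of the day 0 and day 3 libraries alone 5 of the 13 genes were called, Fgf5, Fgf17, Fgf4, Spred3 and Fgfr2. Fgf12, which was under 10 normalized counts in every library before day 3, also lost its call without day 0 replicate 2 or 3, or without day 3 replicate 2 or 3, and with a pseudocount of 5 (0.97) or no filter (adjusted p in limma 0.00158).

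Few genes of the set were called at a single step before the sort. From day 0 to day 1 Fgf5 (2.10 ± 0.21) and Dusp4 (1.53 ± 0.20) rose and Fgf17 (-1.62 ± 0.28) fell, which is 2 and 1 of 37 beside 0.343% and 0.395% of all genes. Dusp4 encodes a nuclear ERK phosphatase, and its normalized counts went from 1139, 2685 and 2096 on day 0 to 5572, 4805 and 5767 on day 1. Its call at this step was lost without day 0 replicate 1 (1.18) or day 1 replicate 3 (1.48), and under quantile normalization (1.46). None of the 3 calls held in a fit of the day 0 and day 1 libraries alone, where adjusted p in limma was 0.0538 for Fgf5, 0.135 for Dusp4 and 0.0513 for Fgf17.

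From day 1 to day 2 Fgf14 rose (2.56 ± 0.35) and Fgf17 fell (-1.57 ± 0.28), each 1 of 37, beside 0.943% and 0.528% of all genes. Fgf17, a ligand of the Fgf8 subfamily, stood at 339, 454 and 375 normalized counts on day 0, at 121, 131 and 123 on day 1, at 37.9, 47.1 and 39.5 on day 2 and at 32.9, 24.9 and 25.5 on day 3. The libraries of successive days did not overlap in it. Its calls at the steps to day 1 and to day 2 were lost without day 1 replicate 1, 2 or 3, and the former also without day 0 replicate 2 or 3 and the latter without day 2 replicate 1, 2 or 3. Without the filter the former was lost (adjusted p in limma 0.0012), and with a pseudocount of 5 the latter (-1.49).

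From day 2 to day 3 the ligand Fgf8 (2.01 ± 0.30) and the receptor Fgfr2 (1.65 ± 0.13) rose and the ETS factor Etv4 (-1.90 ± 0.27) fell, 2 and 1 of 37 beside 0.714% and 0.29% of all genes. Fgf8 went from 119, 115 and 111 to 505, 434 and 463 normalized counts, and Etv4 from 2989, 3120 and 2847 to 1004, 709 and 722. Neither pair of groups overlapped. The call of Fgf8 was lost without day 2 replicate 3 (adjusted p in limma 0.00111) and that of Etv4 without day 3 replicate 2 (0.00104), with log2-fold-changes of 1.98 and -1.81. Without day 0 replicate 1, Fgf14 was also called higher at this step (1.595, adjusted p in limma 0.000733).

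Per kb of exon, which allows ligands to be set side by side, Fgf4 was the most abundant ligand on day 0 (2045 ± 312 normalized counts per kb, SD, n = 3) and day 1 (2271 ± 176), and Fgf5 on day 2 (1893 ± 78.0) and day 3 (2106 ± 35.2). In day 4 GFP-negative cells Fgf5 (1099 ± 85.5) and Fgf8 (986 ± 165) were at the top and within their spread of each other. In day 5 GFP-negative cells Fgf15 (735 ± 102) and Fgf8 (726 ± 78.4) were at the top. In GFP-positive cells no ligand came near these levels, and Fgf15 led on day 4 (189 ± 10.2) and day 5 (155 ± 9.36). The exon length used was the union over all annotated transcripts, so that the scale is approximate for genes with long alternative ends.

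**Figure D2:**
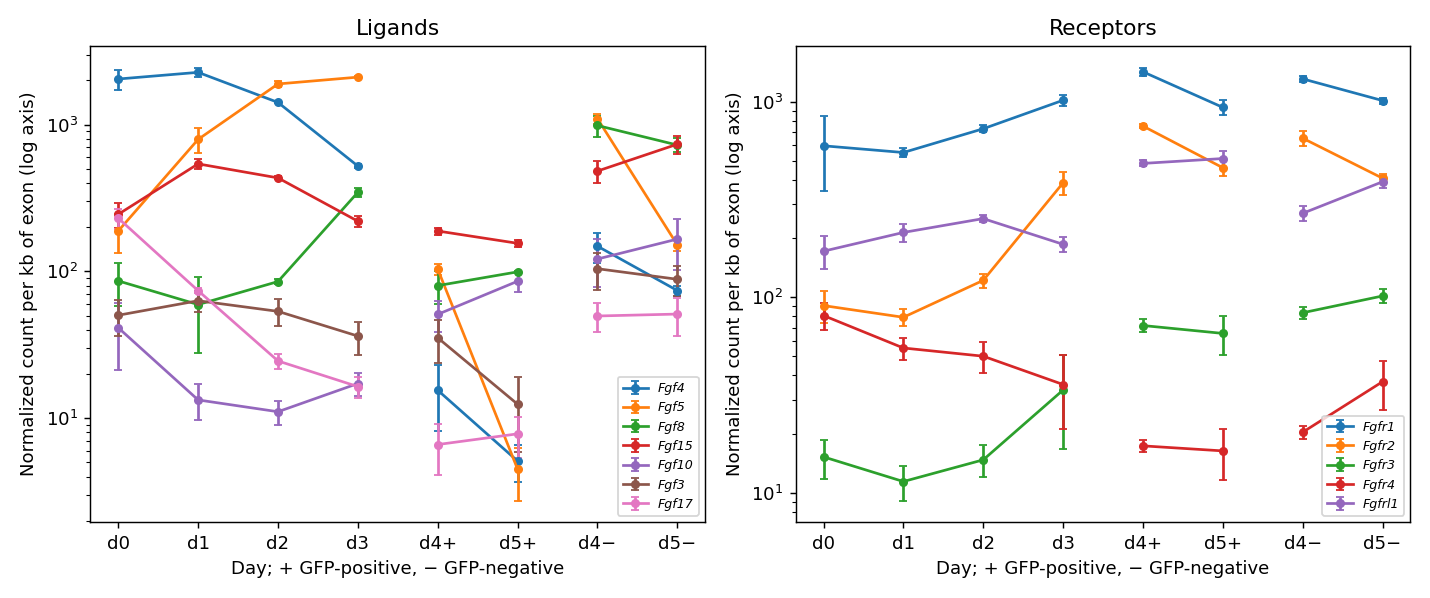
Mean normalized count per kb of exon on a log axis for 7 ligands (left) and 5 receptors (right) in each of the 8 groups, with bars for the SD over 3 replicates. Fgf4 stands at 2045 on day 0, 2271 on day 1 and 522 on day 3, and Fgf5 climbs from 189 on day 0 to 2106 on day 3. None of these ligands exceeds 189 in GFP-positive cells, and Fgfr1 is the highest receptor in every group.

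The next question was how the set differed between the populations that separated after day 3. Against day 3, 2 genes rose and 10 fell in day 4 GFP-positive cells, beside 3.33% and 7.36% of all genes, and 3 rose and 2 fell in day 4 GFP-negative cells, beside 2% and 0.871%. Both comparisons use the same day 3 libraries. All 3 ETS factors fell in GFP-positive cells, Etv5 by 4.58 ± 0.22 on the log2 scale, Etv4 by 3.22 ± 0.27 and Etv1 by 2.60 ± 0.21. Of the ligands Fgf4 (-5.14 ± 0.23), Fgf5 (-4.34 ± 0.21), Fgf1 (-3.93 ± 0.42) and Fgf8 (-2.13 ± 0.30) fell, and of the inhibitors Spry4 (-4.17 ± 0.17) and Dusp6 (-2.45 ± 0.15). In bulk samples a smaller share of expressing cells and less RNA in each of them cannot be told apart.

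Fgf21, a ligand of the endocrine subfamily, was also called lower at this step. It was listed at 0 in all 6 GFP-positive libraries and stood at 4.88, 7.83 and 12.2 normalized counts on day 3, which is close to the floor of the data, so no fold is given. Its call was lost with a pseudocount of 5 and in a fit of the 2 groups alone.

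In GFP-negative cells Fgf4 (-1.83 ± 0.23) and Etv5 (-1.58 ± 0.22) fell as well. Fgf10, a ligand of epithelial and mesenchymal signalling, rose (2.75 ± 0.34) from 76.5, 94.6 and 66.8 normalized counts on day 3 to 351, 751 and 575, and Fgf17 rose (1.55 ± 0.28) from 32.9, 24.9 and 25.5 to 63.0, 99.3 and 89.6. The Fgf17 call was lost without day 3 replicate 2 or 3 or without day 4 GFP-negative replicate 2 or 3, at log2-fold-changes of 1.42 to 1.49. It was also lost with a pseudocount of 5 (1.43), under quantile normalization (1.48) and in a fit of the 2 groups alone (adjusted p in limma 0.00845). In GFP-positive cells Fgf10 stood at 172, 256 and 276 on day 4, with a log2-fold-change of 1.54 ± 0.34 against day 3 that missed the threshold (adjusted p in limma 0.00104) and passed it under quantile normalization, a filter of 50 or without day 0 replicate 1.

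Flrt3, whose product is a transmembrane partner of FGF receptors, rose from day 3 in both gates. Its normalized counts on day 3 were 417, 578 and 433, and the sorted libraries held 1841, 2385 and 2511 in day 4 GFP-positive cells and 1805, 2463 and 2323 in day 4 GFP-negative cells. The log2-fold-changes were 2.24 ± 0.24 and 2.21 ± 0.24. By day 5 the values were 5408, 6064 and 6736 in GFP-positive cells and 4922, 5221 and 6085 in GFP-negative cells, and the gates overlapped on both days, with a gate difference of 0.03 (95% interval -0.47 to 0.53) on day 4 and 0.17 (-0.34 to 0.67) on day 5.

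Compared directly, GFP-positive cells were lower than GFP-negative cells in 11 of 37 genes on day 4 and higher in none (3 at an unadjusted p under 0.05 in limma), beside 3.63% lower and 0.328% higher among all genes. On day 5 they were lower in 13 and higher in 1, beside 4.61% and 0.4%. The 10 genes lower on both days, Fgf1, Fgf4, Fgf5, Fgf8, Fgf17, Spry4, Dusp6, Il17rd, Etv4 and Etv5, made up 90.9% of the day 4 list and 76.9% of the day 5 list. Among all genes 560 were lower on both days, 73.4% of the 763 lower on day 4 and 57.9% of the 968 lower on day 5, and the gate comparisons share no library. In fits of the 2 groups alone the calls of Fgf1, Fgf4 and Fgf17 on day 4 were lost (adjusted p in limma 0.00227, 0.00104 and 0.00237), as were those of Fgf1, Fgf3 and Fgf17 on day 5 (0.00884, 0.00434 and 0.00171). The median log2-fold-change of the 37 genes was -0.93 on day 4 and -1.17 on day 5, beside 0.01 and -0.00169 over all genes tested.

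**Figure D3:**
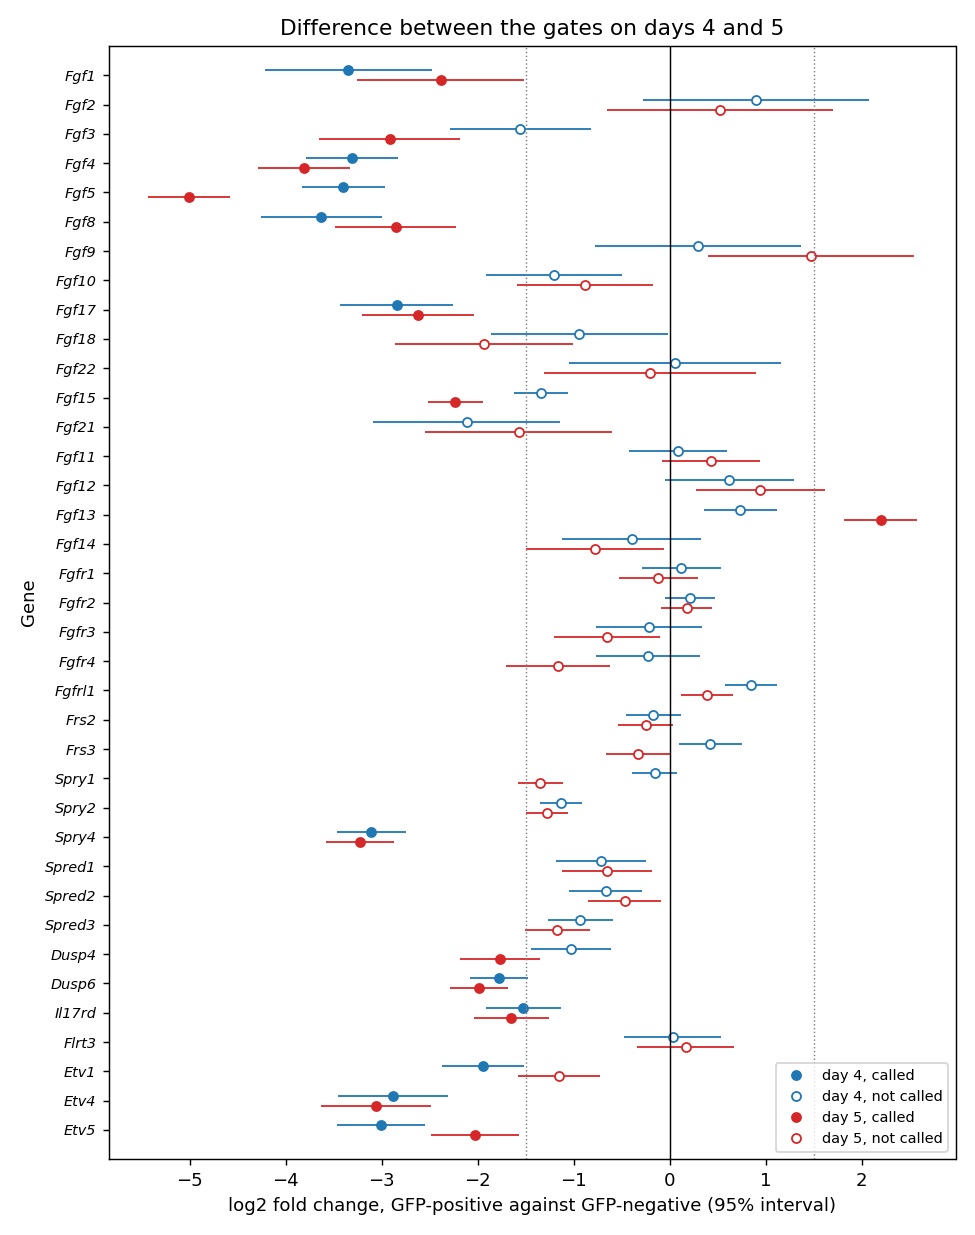
Log2-fold-change of GFP-positive against GFP-negative cells with its 95% interval for the 37 genes tested, on day 4 (blue) and day 5 (red), with filled points for calls and dotted lines at -1.5 and 1.5. Fgf1, Fgf4, Fgf5, Fgf8, Fgf17, Etv4 and Etv5 have filled points on the left on both days, down to -5.01 for Fgf5 on day 5, Fgf2 and Fgf9 lie to the right of 0 and are not called, the receptors lie between -1.16 and 0.85, and Fgf13 is the only filled point on the right, at 2.20.

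Markers of several other cell types moved with the gates. Of the 5 formative epiblast markers named above none was called by limma on either day (4 and 5 at an unadjusted p under 0.05). Of these, 3 were lower on day 4 and 4 on day 5, and 1 was higher on each day. The median log2-fold-changes of the 5 markers were -0.60 and -0.50. Beside 3.63% and 4.61% lower and 0.328% and 0.4% higher among all genes, a count of 0 in 5 is no result about these markers. The 8 naive pluripotency markers summed to 1259 to 2122 in day 4 GFP-positive and to 12932 to 15282 in day 4 GFP-negative libraries, and to 530 to 694 against 5558 to 6840 on day 5. The 8 mesendoderm markers summed to 373 to 763 against 6969 to 10308 on day 4 and to 261 to 394 against 4053 to 5001 on day 5, with Mixl1 below 10 in all 3 day 5 GFP-positive libraries. The 8 midbrain and hindbrain markers summed to 3589 to 3871 against 5946 to 7445 on day 4 and to 5074 to 5689 against 9673 to 12303 on day 5. Of these 8 markers 6 were called lower on day 4 and 5 on day 5, beside 3.63% and 4.61% of all genes. The median log2-fold-changes of the 8 were -3.17 and -3.06, while Pax2 was called higher on day 5 (2.23 ± 0.37), beside 0.4% of all genes. Their sum therefore joins opposite directions. The 6 endothelium markers summed to 138 to 264 against 965 to 1815 on day 4 and to 731 to 898 against 1483 to 2181 on day 5, with Emcn below 10 in all of these libraries and Cdh5 and Tie1 below 10 in the 3 day 5 GFP-positive libraries. The 7 neural crest and surface ectoderm markers summed to 4654 to 5265 against 7412 to 11588 on day 4 and to 3134 to 3403 against 7863 to 11923 on day 5. On days 4 and 5, 8 and 8 of the naive pluripotency and 8 and 7 of the mesendoderm markers were called lower. The counts were 2 and 3 of the 5 endothelium markers tested and 3 and 3 of the 7 neural crest and surface ectoderm markers. The part of these cells in the gate differences of the FGF genes was not tested.

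Of the 11 secreted ligands tested 5 were called lower in GFP-positive cells on day 4 and 6 on day 5, beside 3.63% and 4.61% of all genes. Among them was Fgf8, which patterns the anterior forebrain and the midbrain boundary. Its normalized counts were 1075, 1444 and 1476 in day 4 GFP-negative cells and 1099, 895 and 947 in day 5 GFP-negative cells. In GFP-positive cells they were 78.4, 114 and 131 on day 4 and 134, 132 and 137 on day 5. GFP-positive libraries were thus in the range of days 0 to 2 (35.4 to 156), and the gate difference was -3.63 ± 0.30 on day 4 and -2.86 ± 0.30 on day 5.

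The other ligands called between the gates were Fgf4 (-3.31 ± 0.23 on day 4, -3.81 ± 0.23 on day 5), Fgf5 (-3.40 ± 0.21, -5.01 ± 0.21), Fgf17 (-2.85 ± 0.28, -2.62 ± 0.28) and Fgf1 (-3.35 ± 0.42, -2.39 ± 0.42) on both days. Fgf1, a ligand for every FGF receptor, was at 1.35, 0 and 0.611 normalized counts in day 4 GFP-positive and at 16.3, 14.5 and 14.0 in day 4 GFP-negative libraries, so its log2-fold-change depends on the pseudocount. Its day 5 call was lost with a pseudocount of 5 (-1.46), under quantile normalization (adjusted p in limma 0.0205) and without replicate 2 or 3 of either gate. Fgf18 was lower without overlap on both days and not called, at 7.36, 9.81 and 10.8 normalized counts in GFP-positive against 20.1, 14.7 and 21.7 in GFP-negative cells on day 4 (-0.94 ± 0.44) and at 17.7, 32.7 and 20.4 against 118, 64.8 and 94.6 on day 5 (-1.93 ± 0.44). With a pseudocount of 5 its day 5 difference was called (-1.77). Fgf10, with -1.21 ± 0.34 on day 4 and -0.88 ± 0.34 on day 5, was not called either, and its gates overlapped on day 5. The ligands Fgf9 (0.29 ± 0.51 on day 4, 1.47 ± 0.51 on day 5) and Fgf2 (0.90 ± 0.57, 0.53 ± 0.57) had positive values on both days and were not called. On day 5 Fgf9 stood at 22.4, 21.5 and 25.5 normalized counts in GFP-negative and 104, 66.5 and 40.6 in GFP-positive cells, which did not overlap (adjusted p in limma 0.0576).

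Fgf3 and Fgf15, the chromosome 7 neighbours of Fgf4, were called between the gates on day 5. Fgf3 stood at 168, 255 and 305 normalized counts in day 4 GFP-negative, 58.6, 76.4 and 111 in day 4 GFP-positive, 259, 180 and 178 in day 5 GFP-negative and 43.5, 12.8 and 30.7 in day 5 GFP-positive cells. The gates did not overlap on either day, with log2-fold-changes of -1.56 ± 0.35 on day 4 (adjusted p in limma 0.00334, not called) and -2.92 ± 0.35 on day 5. Fgf15 stood at 1287, 1388 and 1754 against 612, 552 and 566 on day 4 and at 2591, 1983 and 2172 against 472, 448 and 505 on day 5, with log2-fold-changes of -1.34 ± 0.14 (not called) and -2.23 ± 0.14. Unlike Fgf4, whose level fell from day 0 to day 3, Fgf15 had its mRNA at 657 to 911 on day 0, 1493 to 1738 on day 1 and 603 to 711 on day 3, with no call between days 0 and 3. Exons of Fgf15 overlap those of the antisense genes Gm26793 and Gm39119, and reads of either strand could not be told apart here.

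Among the inhibitors the log2-fold-change between the gates was negative for all 9 on both days, beside 49.2% and 50.2% of all genes tested. Of these inhibitors 3 were called lower on day 4 and 4 on day 5, beside 3.63% and 4.61% of all genes. Spry4, a Sprouty protein that blocks signalling upstream of ERK, had the lowest value. Its normalized counts were 3315, 5000 and 4438 on day 0, 1600, 1551 and 1406 on day 3, 743, 869 and 590 in day 4 GFP-negative and 65.9, 112 and 78.1 in day 4 GFP-positive cells. On day 5 they were 482, 402 and 444 against 47.2, 43.0 and 48.9. The gates did not overlap, and the difference was -3.11 ± 0.17 on day 4 and -3.23 ± 0.17 on day 5.

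Dusp6, the cytoplasmic ERK phosphatase, stood at 2187, 2322 and 1553 normalized counts in day 4 GFP-negative and 509, 607 and 631 in day 4 GFP-positive cells, and at 2618, 2411 and 2485 against 776, 623 and 521 on day 5. Its gate differences were -1.78 ± 0.15 and -1.98 ± 0.15. Il17rd, a membrane inhibitor of FGF signalling, stood at 4626, 5147 and 4865 against 1364, 1945 and 1824 on day 4 and at 6673, 6812 and 7828 against 2410, 2177 and 2188 on day 5, with differences of -1.53 ± 0.19 and -1.65 ± 0.19. Its day 4 call was lost without GFP-negative replicate 2 (-1.49) or GFP-positive replicate 1 (-1.37). In neither gene did the gates overlap.

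Dusp4 was called between the gates on day 5 (-1.77 ± 0.20) after 2970, 2525 and 2559 normalized counts in GFP-negative and 888, 703 and 777 in GFP-positive cells, and it fell in GFP-positive cells from day 4 to day 5 (-1.81 ± 0.20). On day 4 its gate difference was -1.03 ± 0.20. The remaining inhibitors were not called between the gates, Spry1 with -0.16 ± 0.11 on day 4 and -1.35 ± 0.11 on day 5 (adjusted p in limma 1.82e-08, under the fold threshold), Spry2 with -1.13 ± 0.10 on day 4 and -1.28 ± 0.10 on day 5, Spred3 with -0.93 ± 0.16 and -1.17 ± 0.16, Spred1 with -0.71 ± 0.23 and -0.65 ± 0.23, and Spred2 with -0.67 ± 0.18 and -0.47 ± 0.18.

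Etv5 was the ETS factor with the highest normalized counts, at 11316, 27661 and 20261 on day 0, 24561, 29995 and 26031 on day 1, 23029, 23985 and 23930 on day 2 and 15752, 14578 and 14126 on day 3. On day 4 it stood at 4908, 5102 and 4859 in GFP-negative and at 450, 858 and 607 in GFP-positive cells. On day 5 it stood at 4496, 4024 and 4254 against 1037, 1056 and 1039. The gates were apart on both days, by -3.00 ± 0.22 and -2.03 ± 0.22 on the log2 scale.

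Etv4 had gate differences of -2.89 ± 0.27 and -3.06 ± 0.27, with 73.8, 115 and 72.1 normalized counts in day 4 GFP-positive cells against 495, 764 and 675 in day 4 GFP-negative cells. Etv1 had 174, 218 and 188 against 648, 881 and 722 on day 4 (-1.94 ± 0.21), and on day 5 its difference of -1.15 ± 0.21 was not called.

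**Figure D4:**
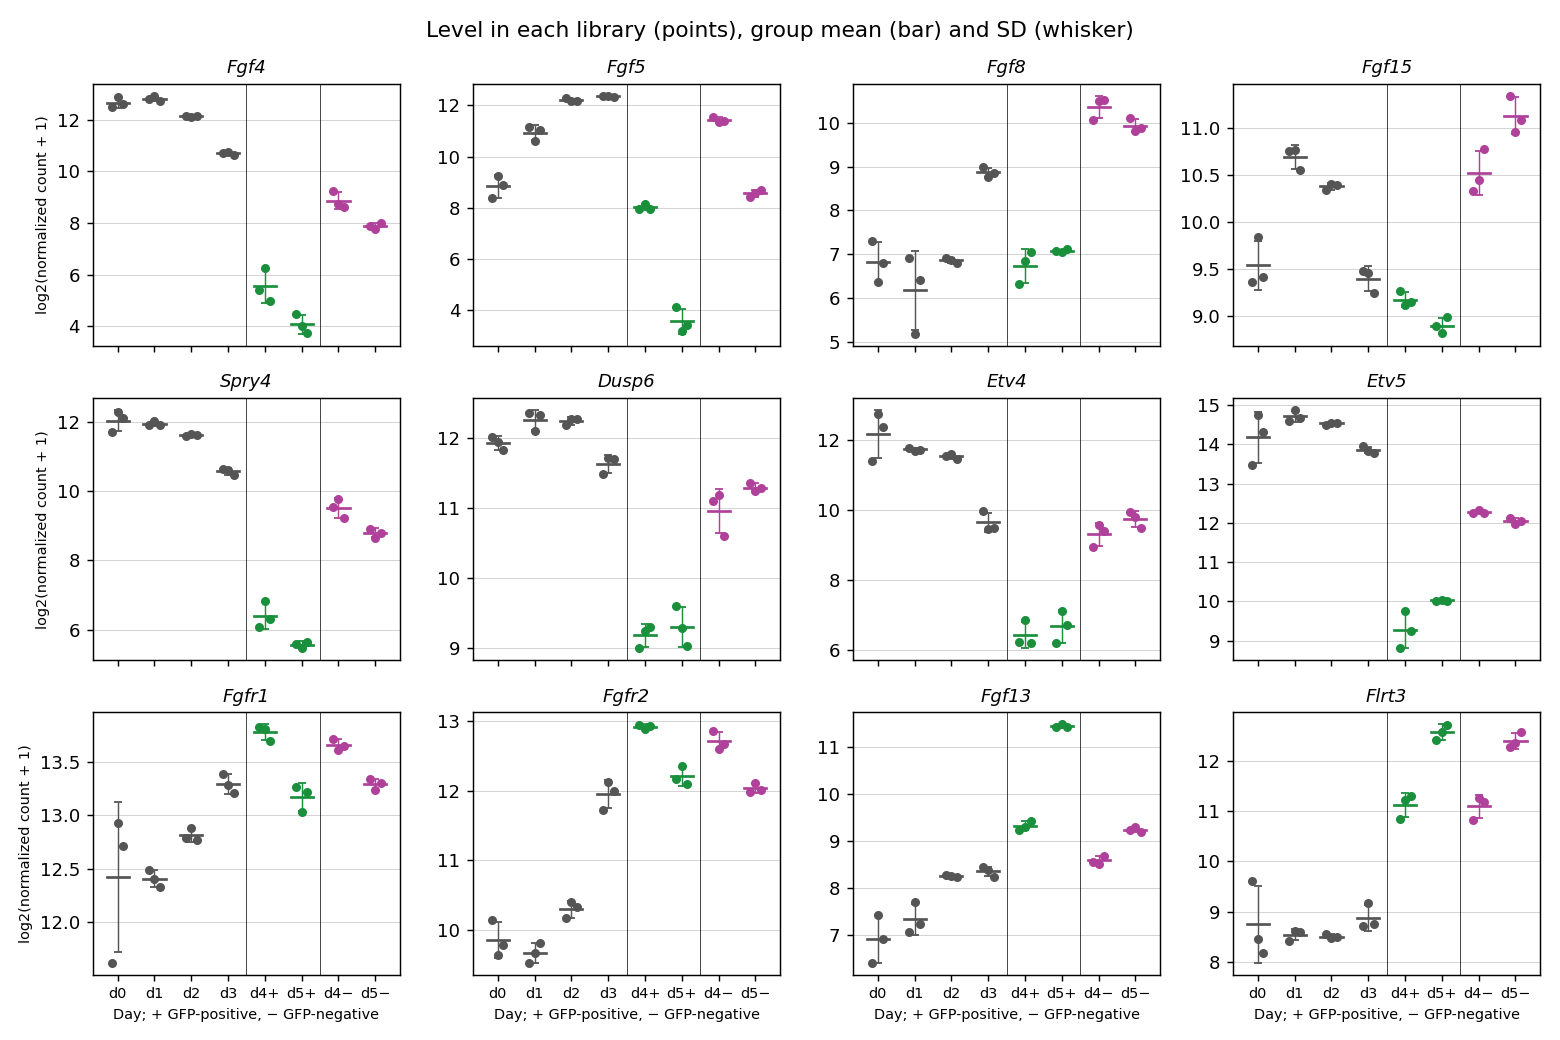
Log2(normalized count + 1) in each library (points) with the group mean (bar) and SD (whisker) for 12 genes, in grey for days 0 to 3, green for GFP-positive and purple for GFP-negative cells. The gates are apart for Fgf4, Fgf5, Fgf8, Fgf15, Spry4, Dusp6, Etv4 and Etv5 and overlap for Flrt3, and Fgf13 is higher in day 5 GFP-positive cells than in any other group.

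None of the 5 receptors was called between the gates by limma, with 1 of them on day 4 and 3 on day 5 at an unadjusted p under 0.05. Beside 3.63% and 4.61% lower and 0.328% and 0.4% higher among all genes, a count of 0 in 5 is close to the background and is no result about the receptors. Fgfr2, a receptor whose isoforms answer to different ligands in epithelium and mesenchyme, rose from 1148, 1351 and 1286 normalized counts on day 2 to 3394, 4461 and 4078 on day 3. It stood at 7868, 7559 and 7843 in day 4 GFP-positive and at 7415, 6233 and 6523 in day 4 GFP-negative cells, and at 4612, 5254 and 4384 against 4049, 4435 and 4112 on day 5. The gate difference was 0.21 (95% interval -0.05 to 0.47) on day 4 and 0.17 (-0.09 to 0.44) on day 5. Exons of Fgfr2 overlap those of Ctbp2 on the same strand in the annotation, so reads may have been divided between them.

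Fgfr1 had a gate difference of 0.12 (95% interval -0.29 to 0.53) on day 4 and -0.12 (-0.53 to 0.29) on day 5. Fgfr3 had -0.22 (-0.77 to 0.34) and -0.66 (-1.21 to -0.10), and Fgfr4 had -0.23 (-0.77 to 0.32) and -1.16 (-1.71 to -0.62). Fgfrl1, a receptor without a kinase domain, had 0.85 (0.58 to 1.12) and 0.39 (0.12 to 0.66). For Fgfr1, Fgfr2, Fgfr3 and Fgfrl1 the intervals keep the gate difference within 1.5 on both days, whereas that of Fgfr4 on day 5 reaches beyond it.

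Per kb of exon Fgfr1 was the highest receptor in all 8 groups, from 550 ± 30.8 (SD, n = 3) on day 1 to 1423 ± 72.2 in day 4 GFP-positive cells. Fgfr2 was the next on day 3 (385 ± 52.4) and in both gates on day 4 (751 ± 16.6 with GFP, 651 ± 59.7 without). Fgfr3 did not exceed 102 ± 8.48 and Fgfr4 did not exceed 80.8 ± 12.9 in any group. In day 0 replicate 1 Fgfr1 stood at 3139 normalized counts against 7804 and 6694 in the other day 0 libraries. The adaptor Frs2 stood between 1650 and 3751 normalized counts in every library and was never called, and Frs3 lay between 188 and 545.

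None of the 4 intracellular FGFs, which are not secreted and bind sodium channels, was called lower in GFP-positive cells by limma (0 on day 4 and 1 on day 5 were lower at an unadjusted p under 0.05), beside 3.63% and 4.61% of all genes. A count of 0 in 4 is close to those shares and is no result about the intracellular FGFs. Fgf13 was called higher on day 5, beside 0.4% of all genes. It stood at 607, 629 and 691 normalized counts in day 4 GFP-positive and 376, 366 and 414 in day 4 GFP-negative cells, and at 2739, 2866 and 2762 against 603, 632 and 589 on day 5. The gates did not overlap on either day, and the difference was 0.74 ± 0.18 (not called) on day 4 and 2.20 ± 0.18 on day 5. Within GFP-positive cells Fgf13 rose by 2.12 ± 0.18 from day 4 to day 5, the only gene of the set called higher at this step, where 10 were higher at an unadjusted p under 0.05 in limma.

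Fgf12 rose from 6.11, 11.4 and 11.4 normalized counts on day 3 to 45.5, 39.4 and 39.5 in day 4 GFP-positive cells (2.04 ± 0.32), and stood at 67.3, 110 and 94.98 in them on day 5. The call was lost in a fit of the 2 groups alone (adjusted p in limma 0.00147). Its gate differences were 0.62 ± 0.32 and 0.94 ± 0.32, not called, and those of Fgf11 and Fgf14 lay between -0.78 and 0.43. On day 5 Fgf14 stood at 43.0, 29.4 and 40.5 in GFP-positive and at 65.1, 55.2 and 74.9 in GFP-negative cells, which did not overlap (-0.78 ± 0.35, not called). Fgf14 had risen earlier, from 4.71, 4.64 and 4.95 on day 1 to 101, 110 and 94.8 on day 3.

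Few genes of the set were called between days 4 and 5. In GFP-positive cells 1 gene rose (Fgf13) and 2 fell, Fgf5 (-4.46 ± 0.21) and Dusp4, beside 0.595% and 0.89% of all genes. In GFP-negative cells Fgf5 (-2.85 ± 0.21) alone fell and none rose (13 were higher at an unadjusted p under 0.05 in limma), beside 0.509% and 0.762%. The Fgf5 call in GFP-positive cells was lost in a fit of the 2 groups alone (adjusted p in limma 0.00104). Fgf4 was also called lower in GFP-positive cells with a pseudocount of 0.5 (-1.51) and without day 4 GFP-positive replicate 1 or 3 or day 5 GFP-positive replicate 1 (-1.76 to -1.55). With a pseudocount of 5, or without day 0 replicate 1, the ligand Fgf18 was also called higher in GFP-negative cells, where it stood at 20.1, 14.7 and 21.7 normalized counts on day 4 and 118, 64.8 and 94.6 on day 5.

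The change of the gate difference from day 4 to day 5, tested as an interaction in the same limma fit, was called for none of the 37 genes beside 0.0762% higher and 0.0333% lower among all genes, with 11 genes at an unadjusted p under 0.05 and 4 at an adjusted p under 0.05, beside 1.1% of all genes at the latter. Fgf5 was called without day 0 replicate 1 (-1.61, adjusted p in limma 0.000701 against 0.00534 with it) and without day 5 GFP-positive replicate 1 (-1.88).

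The 13 genes tested and never called were Fgf2, Fgf11, Fgf22, Fgfr1, Fgfr3, Fgfr4, Fgfrl1, Frs2, Frs3, Spry1, Spry2, Spred1 and Spred2. Of these, Fgf11 (day 3 against day 0, without day 0 replicate 1), Fgfr3 (both gates on day 4 against day 3, without day 3 replicate 2, at 1.59 and 1.80), Fgfr4 (day 3 against day 0, without day 3 replicate 1, at -1.53) and Spry1 (gates on day 5, under quantile normalization) passed in an alternative fit. Fgf22 stood at 2.93 to 27.8 normalized counts. Fgf2, whose exons overlap those of Nudt6 on the opposite strand, ranged from 9.68 to 156. Its mean was lowest on day 0 (15.6) and highest in day 5 GFP-positive cells (121), groups that were not compared directly.

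The wider pathway was read from 4 lists outside the set. Of 19 genes of the RAS, RAF, MEK and ERK cascade and its adaptors, all tested, none was called by limma between the gates on day 4 or day 5 (3 and 4 at an unadjusted p under 0.05), beside 3.63% and 4.61% lower and 0.328% and 0.4% higher among all genes, and their median differences were -0.03 and 0.0001. Of 19 heparan sulphate proteoglycan and enzyme genes none was called by limma between the gates either (6 and 5 at an unadjusted p under 0.05), beside the same shares of all genes, with medians of 0.05 and 0.02. A count of 0 in a list of 19 is close to those shares and is no result about the list. Of 11 other FGF genes 8 were tested and 2 were called lower in GFP-positive cells on each day, beside 3.63% and 4.61% of all genes. They were the coreceptor gene Klb (-2.88 ± 0.32 on day 4, -3.28 ± 0.32 on day 5) and Fgfbp1, which encodes a secreted carrier of FGFs (-2.69 ± 0.28, -3.66 ± 0.28).

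Of 13 other ERK-responsive genes 1, Phlda1, was called higher in GFP-positive cells on each day, beside 0.328% and 0.4% of all genes, and none was called lower by limma, beside 3.63% and 4.61%. At an unadjusted p under 0.05 there were 2 higher and 2 lower on day 4 and 2 higher and 5 lower on day 5. The direction of Phlda1 was opposite to that of Spry4, Dusp6, Etv4 and Etv5. Its normalized counts on day 3 were 93.6, 106 and 86.6, followed by 2637, 2960 and 2857 in day 4 GFP-positive and 395, 623 and 612 in day 4 GFP-negative cells. On day 5 they were 4517, 3866 and 4388 against 1318, 1156 and 1078. The gates did not overlap, and the differences were 2.40 ± 0.16 and 1.85 ± 0.16. The median over the 13 genes was -0.26 on day 4 and -0.14 on day 5. Dusp5, an inducible ERK phosphatase of this list, rose from day 3 in both gates, by 1.75 ± 0.17 with GFP and 1.50 ± 0.17 without.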

How the data were processed

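Polyadenylated RNA of 24 libraries was analysed in 8 groups of 3, taken from the labels. Transcript abundances had been estimated with kallisto 0.43.1 (build mm10, from the submitters' processing notes), and the authors deposited them as DESeq2-normalized counts, a signal scaled by library size factors. Strandedness was not given in the sources used here. Whole reads were not recovered, since 45.5% to 75.5% of values up to 20 reads lay within 0.1 of a whole multiple of the estimated worth of 1 read, so no count model was run. The 9 further columns hold the authors' own gene calls and were not used. All per-sample columns were assigned.

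Values were transformed as log2(value + 1), filtered at 10 or more in at least 3 libraries (21005 genes) and tested in R 4.3.3 by limma 3.58.1 (functions lmFit, contrasts.fit and eBayes with trend), all 24 libraries in 1 fit with 16 residual degrees of freedom and no block. Fold changes are on the log2(value + 1) scale, which understates changes of low genes. Adjusted p-values are Benjamini-Hochberg values within a contrast. Per kb values used GENCODE M21 exon unions. The procedure was tested on simulated data. All genes of the set are accounted for, and those called at least once are described with values. The members and lists were chosen with earlier results of these data known. The study describes its triplicates as biological replicates of organoid cultures, all from 1 line, whereas the labels number them only, so p-values measure the spread between these pools. Python 3.11.15, pandas 2.3.3, numpy 2.4.6 and matplotlib 3.10.9 were used. The alternatives tried were a pseudocount of 0.5 or 5, dropping the filter or raising it to 50, quantile normalization, eBayes without trend, a replicate block, looser thresholds, fits of only the groups compared, and leaving out each library.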

Additional observations from a re-analysis of the deposited data

Results flagged for a closer look

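The difference between GFP-positive and GFP-negative cells changed from day 4 to day 5 for 4 genes at an adjusted p under 0.05 in limma, tested as an interaction, beside 1.1% of all 21005 genes tested. For Spry1 the change was -1.19 on the log2 scale (adjusted p 0.00044), with 2593 to 2730 normalized counts in day 5 GFP-negative cells against 1012 to 1127 in day 5 GFP-positive cells, and 1629 to 1748 against 1381 to 1597 on day 4. For Fgf5 it was -1.61 (adjusted p 0.00534, and 0.0594 under quantile normalization), and for Fgf13 1.46 (adjusted p 0.00416). For Fgf15 it was -0.89 (adjusted p 0.0226). When each of the 12 libraries of days 4 and 5 used in it was left out in turn, the Fgf15 value lay between -1.02 and -0.78 and its adjusted p between 0.00966 and 0.0778, at or over 0.05 in 6 of 12 fits, whereas those of Spry1, Fgf5 and Fgf13 stayed under 0.05 in all 12. The 6 were the fits without replicate 1 of either gate on either day, without day 4 GFP-negative replicate 2 and without day 5 GFP-positive replicate 2.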

How the results depend on the processing

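The counts of genes called moved by more than 1.5 times under 4 alternatives, beside some fits without a library. With a pseudocount of 5, 1 gene was called from day 1 to day 2 and 2 in GFP-negative cells from day 4 to day 5, and with the replicate block 1 was from day 1 to day 2, where Fgf17 missed the threshold (adjusted p in limma 0.00103), as it did from day 0 to day 1 (0.00139). With an adjusted p under 0.05 and a log2-fold-change above 1, 7 genes were called at each of the steps to days 1, 2 and 3 and in GFP-positive cells from day 4 to day 5, 21 from day 0 to day 3 and from day 3 to day 4 GFP-positive, 13 from day 3 to day 4 GFP-negative, 4 in GFP-negative cells from day 4 to day 5, 17 between the gates on day 4 and 3 for the change of the gate difference. In fits of only the groups compared 0 genes were called from day 0 to day 1 and 5 from day 0 to day 3. Leaving out each library gave 1 to 3 genes from day 0 to day 1, 1 to 2 to day 2, 2 to 4 to day 3, 12 to 15 from day 0 to day 3, 12 to 14 to day 4 GFP-positive, 4 to 5 to day 4 GFP-negative, 3 to 4 and 1 to 2 between days 4 and 5 in GFP-positive and GFP-negative cells, 10 to 12 and 13 to 14 between the gates on days 4 and 5, and 0 to 1 for the change of the gate difference. Of 1143 alternative values for 71 pairs of gene and comparison, 1075 kept direction and side of the threshold, 63 kept direction and lost the call, 5 gained it and 0 reversed. The cause was not tested. Same-numbered libraries correlated at -0.001 on average over 84 pairs of groups (-0.284 to 0.401) and all 3 correlations were over 0.1 in 1 of 28 pairs of groups, day 3 and day 5 GFP-negative cells (0.133 to 0.401), which were not compared directly. The study describes sorting of each day 4 and day 5 sample into both gates, so that gates may share organoids, but the labels do not tie the numbers to a shared pool, and same-numbered gates correlated at -0.108 to 0.023 on day 4 and -0.075 to 0.147 on day 5. The block changed no other call than those of Fgf17. Depth limits group means under 20 normalized counts most, since 1 read was worth 0.806 to 1.40. Of the 38 genes 12 had such a mean in a group, Fgf20, Fgf21 and Fgf22 in all 8, Fgf1 in both gates on both days, Fgf12 on days 0 to 3, Fgf18 on days 1 to 3 and in both gates on day 4, Fgf2 and Fgf14 on days 0 and 1, Fgf9 on day 0, Fgf17 in GFP-positive cells on both days, and Fgf4 and Fgf5 in day 5 GFP-positive cells.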
